A study of Mus musculus with 8 samples.

Results

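The genes of small nucleolar RNAs (snoRNAs) and small Cajal body RNAs were examined in injured muscle of aged mice. They were taken by name, as every gene whose symbol starts with Snord, Snora or Scarna, and numbered 53 of the 19752 genes with a value. Of these, 30 were Snord genes, 20 were Snora genes and 3 were Scarna genes. Whole tibialis anterior muscle of male mice was profiled at day 8 after cryoinjury, made with a metal probe chilled with liquid nitrogen and held on the muscle for 8 s. The mice were 99 weeks old in the sample labels and 22 months old in the series' design text. The treated mice received 2 µg of recombinant interleukin 33 (rIL-33), an alarmin cytokine, into the peritoneal cavity on the days before and after injury, and the others carried the treatment label PBS. RNA of 4 rIL-33 and 4 PBS samples was hybridised to 1 Affymetrix Mouse Gene 1.0 ST array each. Within each treatment, the genetic background was labelled C57BL/6 for replicates 1 and 2 and WT for replicates 3 and 4. The sources used here do not say how the labels differ.

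SnoRNAs are short noncoding RNAs that work in the nucleolus, where ribosomes are made. Box C/D snoRNAs (Snord genes) guide the methylation of ribose in ribosomal RNA with the enzyme fibrillarin. Box H/ACA snoRNAs (Snora genes) guide the conversion of uridine to pseudouridine with the enzyme dyskerin, and the Cajal body RNAs (Scarna genes) guide both changes on the small nuclear RNAs of the spliceosome. A few snoRNAs, such as U8 (Snord118), are needed for cutting the ribosomal RNA precursor rather than for modifying it. In mammals most snoRNAs are cut out of the introns of host genes, many of which encode ribosomal proteins.

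All 53 genes were found in RefSeq (GRCm38.p6), and 52 of them lay inside the span of a longer gene. Ribosomal protein genes held 20 of them, long noncoding RNA genes 15 and other protein genes 17. Snord genes were 53 to 148 bases long (median 69.5), Snora genes 61 to 205 (median 125) and Scarna genes 62 to 275. Of 43 host genes, 32 had a promoter entry in RefSeq. The windows around the start sites of 8 hosts are shown, because these genes hold snoRNAs that were lower on the WT-labelled arrays. Each window runs from 30 bases before the start to 30 bases from it, on the strand of the host, and capitals mark CTTTC or its other-strand form GAAAG. The motif was chosen after the windows had been seen.

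Rpl13a (holds Snord33 and Snord35a; chr7:45128716-45128775, minus strand): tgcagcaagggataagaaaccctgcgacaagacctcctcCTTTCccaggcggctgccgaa
Rplp2 (holds Snora52; chr7:141447621-141447680, plus strand): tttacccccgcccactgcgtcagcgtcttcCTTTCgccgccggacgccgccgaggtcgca
Rpl23 (holds Snora21; chr11:97782410-97782469, minus strand): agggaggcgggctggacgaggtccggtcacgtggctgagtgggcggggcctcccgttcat
Rps3a1 (holds Snord73b; chr3:86142639-86142698, minus strand): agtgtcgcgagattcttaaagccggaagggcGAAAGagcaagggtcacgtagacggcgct
Ncl (holds Snord82; chr1:86359426-86359485, minus strand): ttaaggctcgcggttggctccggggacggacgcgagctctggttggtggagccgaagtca
Gas5 (holds Snord47; chr1:161035136-161035195, plus strand): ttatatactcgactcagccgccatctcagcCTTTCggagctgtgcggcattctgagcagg
2410006H16Rik (holds Snord49a; chr11:62602847-62602906, plus strand): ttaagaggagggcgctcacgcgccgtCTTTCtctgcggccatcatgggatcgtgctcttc
Snhg1 (holds Snord22; chr19:8723457-8723516, plus strand): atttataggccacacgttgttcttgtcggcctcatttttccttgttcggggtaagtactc

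One of the 2 motif forms stood in windows of 5 of these 8 hosts. It stood in 11 of the 34 windows of hosts in RefSeq's table and in 14.9% of the 32851 windows of all genes. Since the motif was picked from these windows, nothing is read from the difference between the shares. Gas5 has an upstream start with no match as well. A match in these letters is a description of the window and not a binding site.

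On the arrays, 45 of the 53 genes passed the filter on dim genes, which asked for a mean log2 intensity of at least 6.65 over all 8 arrays. These were 23 Snord, 19 Snora and 3 Scarna genes. The 8 dim genes were Snord38a, Snord52, Snord58b, Snord61, Snord73a, Snord85, Snord87 and Snora2b, and they have levels and differences but no test. Snord85, with a mean of 6.64, lay just outside the filter and Snora20, with 6.74, just inside. Mean levels ran from 4.36 (Snord58b) to 12.15 (Snord57) among the Snord genes and from 6.41 (Snora2b) to 12.37 (Snora52) among the Snora genes. Levels of different probe sets are not amounts that can be compared with each other.

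The median intensity of the arrays lay between 222.6 and 232.2. With the WT label the lower quartile was higher, at 97.1 to 107.3 against 88.3 to 93.8 with the C57BL/6 label. The muscle markers Ckm, Acta1, Myh4, Des, Tnnt3 and Myh3 averaged 13.12 to 13.30 on each array. In whole tissue, fewer cells of a type and less RNA per cell cannot be told apart. Of 22 tested markers of muscle, leukocytes and other cell types, 0 had an adjusted p under 0.05 in limma by treatment and 0 by label. At an unadjusted p under 0.05 there were 7 by treatment and 1 by label, against 9.63% and 30.1% of all genes tested.

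Between rIL-33 and PBS, the snoRNA and Cajal body RNA genes lay close to each other with the exception of Snord118. In 42 of the 53 the log2 difference was under 0.2 in size, and 1 exceeded 0.5. The median difference (rIL-33 minus PBS) was -0.06 for the Snord genes, 0.04 for the Snora genes and -0.05 for the Scarna genes, and -0.01 for all genes tested. Differences were above 0 in 21 genes and below 0 in 32. None of the 45 tested passed the threshold (limma with Benjamini-Hochberg adjustment, adjusted p under 0.05), against 0.00675% (1 gene) of all 14814 tested. At an unadjusted p under 0.05 there were 3 of the 45, Snord118, Snora33 and Snora75, and 9.63% of all genes tested.

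Snord118, the U8 snoRNA, is a box C/D RNA required for the processing of the ribosomal RNAs of the large subunit. Its log2 intensity was 11.01, 11.02, 11.75 and 10.18 in rIL-33 replicates 1 to 4 and 9.26, 8.74, 9.39 and 9.40 in the PBS replicates. Every rIL-33 array lay above every PBS array, with a gap of 0.78 between the lowest rIL-33 value (replicate 4) and the highest PBS value. The means were 10.99 ± 0.64 with rIL-33 and 9.20 ± 0.31 with PBS (SD, n = 4 each). The difference was 1.79 (SE 0.28), a 3.47-fold ratio of intensities. It was the fourth largest of the genes tested. Because Snord118 was singled out for this difference, the values are a description, and no support is drawn from its p-values. Groups without overlap were seen in 2.44% of the genes tested in this direction and in 2.13% in the other, or 1.96% and 1.93% of all genes with a value.

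Taken by label, Snord118 differed by 2.02 (C57BL/6) and by 1.57 (WT). The pooled difference ranged from 1.54 to 2.06 as each array was left out. By label it differed by 0.17 (SE 0.63). The next largest treatment difference of the set was 0.48 in size, and without Snord118 the median of the Snord genes was -0.07.

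Snord118 was also the 1 gene of the 53 that lay inside no longer gene. It occupies 137 bases at chr11:69073426-69073562. Tmem107, which encodes a protein of the ciliary transition zone, lies at chr11:69070809-69073293 and ends 132 bases before Snord118 starts, with no annotated gene between them. Tmem107 stood at 6.95 ± 0.08 with rIL-33 and 7.02 ± 0.13 with PBS. Its difference was -0.07 (SE 0.08, limma adjusted p = 0.833), so the neighbour of Snord118 did not differ by more than the spread between arrays. Both means lay not far above the dim filter of 6.65, where a difference could be missed.

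**Figure D1:**
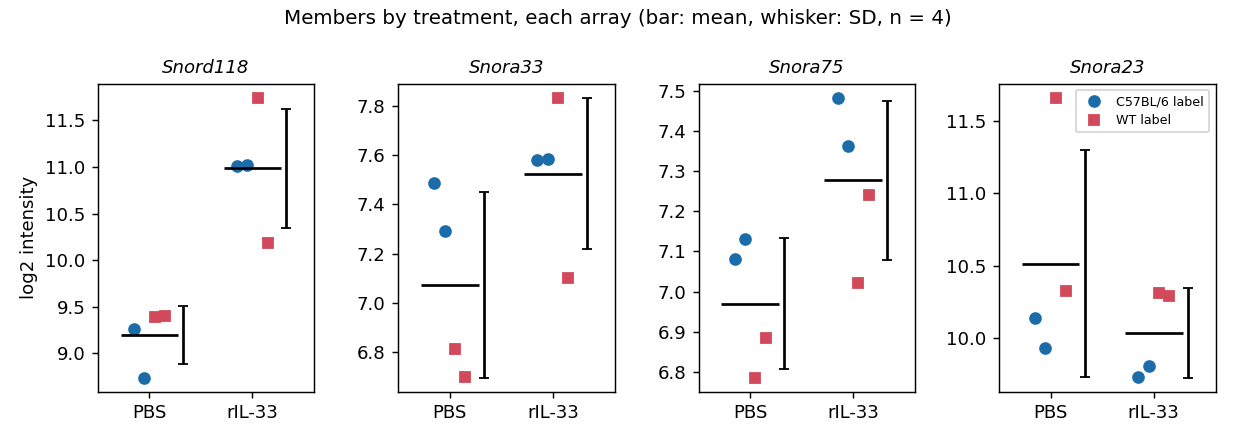
Log2 intensity of Snord118, Snora33, Snora75 and Snora23 on each array, by treatment. Circles are C57BL/6-labelled and squares WT-labelled arrays, bars are means, whiskers are SD (n = 4), and each panel has its own vertical axis; in Snord118 alone of the 4 genes all rIL-33 arrays lie above all PBS arrays.

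Among the other Snord genes, none of the named differences by treatment passed the threshold, and the groups overlapped in each. Snord14e, a copy of the U14 family that takes part in small-subunit RNA processing, was 8.73, 8.64, 8.70 and 8.68 with rIL-33 and 9.43, 9.40, 8.55 and 8.79 with PBS. Only PBS replicates 1 and 2, the C57BL/6-labelled ones, stood apart. The difference was -0.35 (SE 0.18, limma adjusted p = 0.55), with -0.73 under the C57BL/6 label and 0.03 under the WT label. Snord73b differed by -0.29 (SE 0.26) and Snord104 by -0.28 (SE 0.14). Snord33 (0.10, SE 0.27) and Snord82 (0.09, SE 0.28) had the largest positive differences after Snord118 among tested Snord genes, and both changed sign in 5 alternatives. The treatment SEs come from a fit without the label, so they include the spread between labels. With the label as a block, the limma adjusted p was 0.53 for Snord33 and 0.621 for Snord82.

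Of the Snora genes, Snora33, which lies in the ribosomal protein gene Rps12, had the largest positive difference. Its levels were 7.58, 7.59, 7.83 and 7.10 with rIL-33 and 7.49, 7.29, 6.81 and 6.70 with PBS. The rIL-33 replicate 4 value lay below 2 PBS values, so the groups overlapped. The difference was 0.45 (SE 0.19, limma adjusted p = 0.512), and 0.19 and 0.71 within the C57BL/6 and WT labels. Rps12 differed by 0.13 (SE 0.20).

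Snora75, held by the nucleolin gene Ncl, was 7.48, 7.36, 7.02 and 7.24 with rIL-33 and 7.08, 7.13, 6.79 and 6.88 with PBS. The groups overlapped through rIL-33 replicate 3. The difference was 0.31 (SE 0.11, limma adjusted p = 0.489), and 0.32 and 0.30 within the C57BL/6 and WT labels. Ncl differed by 0.08 (SE 0.08) and Snord82, in the same host, by 0.09. Snora44, held by Snhg12, differed by 0.19 (SE 0.09).

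In the other direction, Snora23, in the importin gene Ipo7, was 9.73, 9.81, 10.31 and 10.29 with rIL-33 and 10.14, 9.93, 11.66 and 10.33 with PBS. PBS replicate 3 stood far above all other arrays. The difference was -0.48 (SE 0.33, limma adjusted p = 0.653) with that array and -0.10 without it, and Ipo7 differed by 0.19 (SE 0.08). Snora16a (-0.27, SE 0.21) and Snora69 (-0.17, SE 0.21) followed. Of the Cajal body RNAs, Scarna17 differed by 0.19 (SE 0.32), Scarna13 by -0.12 (SE 0.15) and Scarna8 by -0.05 (SE 0.12). Directions were not stable in several of these genes: Snora16a, Snora69, Scarna17 and Scarna13 changed sign in 1 alternative each and Scarna8 in 2.

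**Figure D2:**
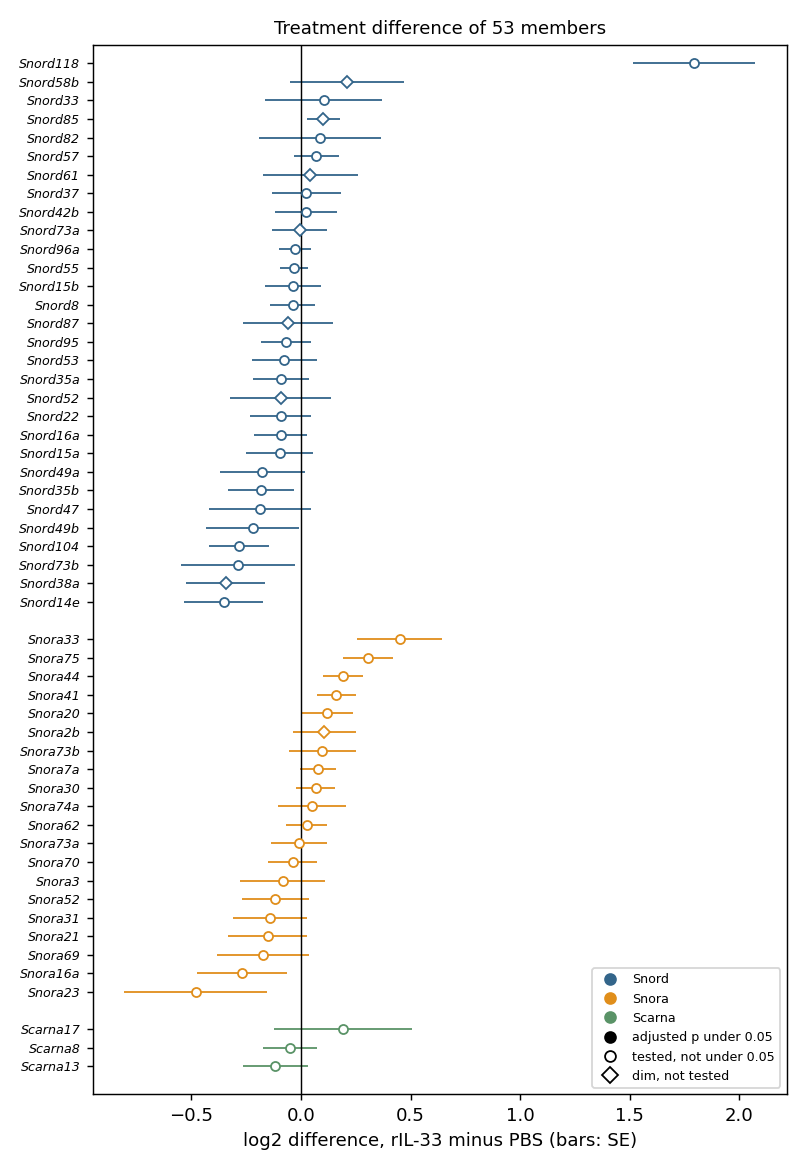
Log2 difference (rIL-33 minus PBS) of all 53 genes by class, ordered by size, with SE bars from the limma fit; open symbols did not pass the adjusted threshold and open diamonds are dim genes without a test. Snord118, at 1.79, stands apart from the other 52 genes, which lie between -0.48 and 0.45.

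The proteins of the snoRNA machinery did not pass the threshold by treatment. For the counts that follow, 9.63% of all genes tested had an unadjusted p under 0.05 by treatment in limma. The core proteins of both particle classes were represented by 8 genes, 5 of them higher and 3 lower with rIL-33, with a median of 0.01 and 1 at an unadjusted p under 0.05 in limma. Dkc1 (dyskerin, the pseudouridine synthase) differed by 0.25 (SE 0.09) and Nop58, a core box C/D protein, by 0.14 (SE 0.16). Of 15 genes of snoRNA particle assembly and the Cajal body, 6 were higher and 9 lower, with 0 past the threshold in limma and 0 at an unadjusted p under 0.05. Naf1, an assembly factor of box H/ACA particles, differed by 0.20 (SE 0.11) and the helicase gene Ruvbl1 by 0.13 (SE 0.16). Of 21 genes of ribosomal RNA transcription and processing, 12 were higher and 9 lower (median 0.04), with 0 past the limma threshold and 1 at an unadjusted p under 0.05. Leukocyte markers averaged 9.77 to 10.30 on the rIL-33 arrays and 10.12 to 10.73 on the PBS arrays, and all 5 were lower with rIL-33, with a median of -0.30 and 0 past the limma threshold (2 at an unadjusted p under 0.05). The 3 fibroblast markers averaged 10.65 to 11.14 on the rIL-33 arrays and 11.22 to 11.48 on the PBS arrays, with 0 past the limma threshold and 3 at an unadjusted p under 0.05. The 3 endothelial markers averaged 10.29 to 10.59 on the rIL-33 arrays and 10.57 to 10.75 on the PBS arrays, all 3 lower with rIL-33 (median -0.23), with 0 past the limma threshold and 2 at an unadjusted p under 0.05. The part of these cell types in the Snord118 difference was not tested.

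Between the genetic background labels the picture was wider. On the WT-labelled arrays 41 of the 53 genes (77.4%) were lower than on the C57BL/6-labelled ones. So were 44.3% of all genes with a value and 54.1% of all genes tested. The median difference (WT minus C57BL/6) was -0.36 for Snord genes, -0.27 for Snora genes and 0.27 for Scarna genes. Over all genes tested it was -0.02 and over all genes with a value 0.03. Under quantile, cyclic loess and median scaling the Snord median stayed between -0.375 and -0.319 and the Snora median between -0.286 and -0.245. By limma, 12 of the 45 tested genes (26.7%) passed the adjusted threshold as lower on the WT-labelled arrays, against 3.67% of all genes tested. None passed as higher, against 1.7% of all genes tested, which makes 5.37% in both directions. At an unadjusted p under 0.05 there were 24 of the 45, 3 of them higher and 21 lower, and 30.1% of all genes tested. The 12 were 9 Snord genes, 2 Snora genes and Scarna17.

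**Figure D3:**
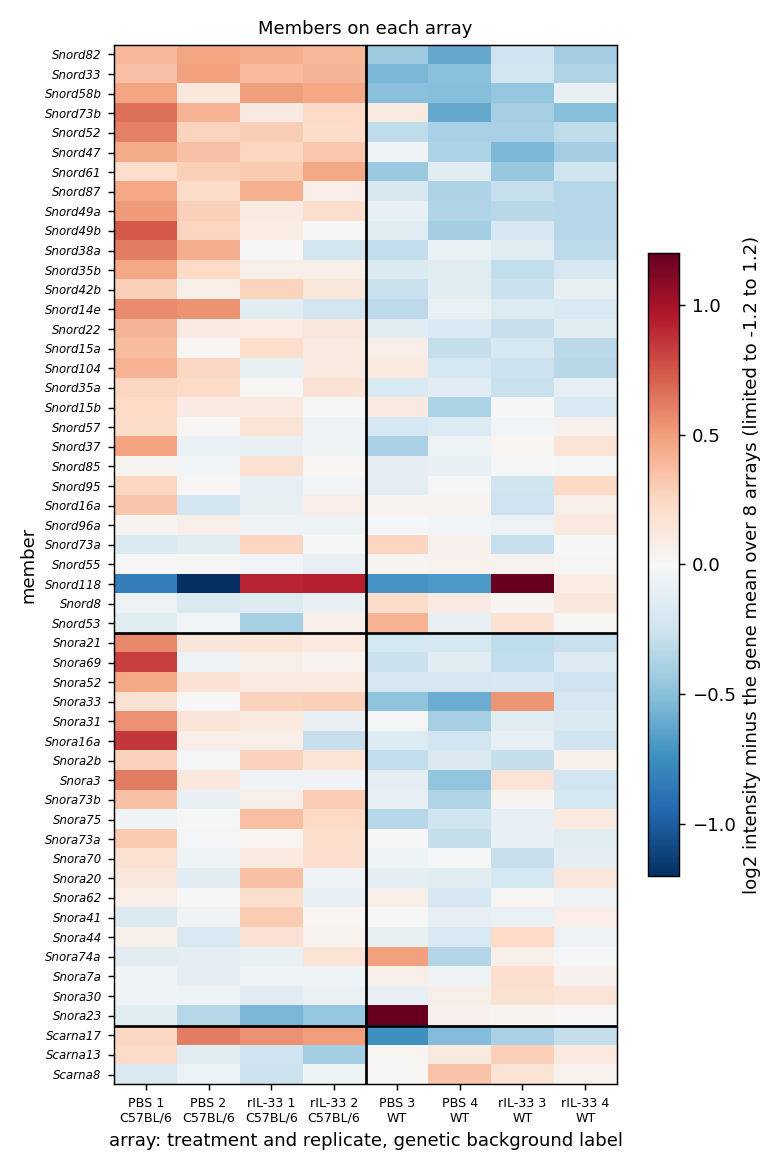
Log2 intensity of each gene minus its own mean over 8 arrays, with genes in rows by class and arrays in columns, the C57BL/6-labelled ones on the left of the vertical line (values beyond the ends of the colour scale take its end colours). Most rows are above their mean on the left and below it on the right, while Snord118 is split by treatment instead.

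Snord82, the box C/D RNA in the nucleolin gene, had the smallest adjusted p together with Snord33. Its levels were 11.46, 11.53, 11.50 and 11.47 on the C57BL/6-labelled arrays (PBS replicates 1 and 2, rIL-33 replicates 1 and 2) and 10.64, 10.45, 10.82 and 10.64 on the WT-labelled arrays (replicates 3 and 4 in the same order). The 4 C57BL/6-labelled values lay within a narrow band well above the other 4. Snord82 fell by 0.85 on the log2 scale (SE 0.08, limma adjusted p = 0.0086).

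Snord33, 1 of the Rpl13a snoRNAs that have been studied in lipid and oxidative stress, showed the same order. On the C57BL/6-labelled arrays it was 8.15, 8.29, 8.18 and 8.21, and on the WT-labelled arrays 7.25, 7.30, 7.58 and 7.44. The labels did not overlap, and the difference was -0.81 (SE 0.08, limma adjusted p = 0.0086). Snord35a, in the same host, was 9.76, 9.73, 9.51 and 9.67 against 9.32, 9.37, 9.23 and 9.40, a smaller difference of -0.34 (SE 0.07, limma adjusted p = 0.0385) with no overlap.

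Scarna17 had the largest difference of the 53. It was 9.92, 10.29, 10.22 and 10.17 on the C57BL/6-labelled arrays and 8.93, 9.15, 9.28 and 9.38 on the WT-labelled ones, with no overlap. The difference was -0.96 (SE 0.11, limma adjusted p = 0.00952). The other Cajal body RNAs lay in the opposite direction without passing the threshold, Scarna8 by 0.28 (SE 0.09, limma adjusted p = 0.0721) and Scarna13 by 0.27 (SE 0.12, limma adjusted p = 0.171). For Scarna13 this was 0.01 within the PBS arrays and 0.53 within the rIL-33 arrays.

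Snord73b, in the small-subunit protein gene Rps3a1, fell by 0.71 (SE 0.16, limma adjusted p = 0.0419). It was 10.12, 9.87, 9.56 and 9.69 on the C57BL/6-labelled arrays and 9.56, 8.84, 9.06 and 8.94 on the WT-labelled ones. PBS replicate 3 exceeded the lowest C57BL/6-labelled array by a small margin, so the labels touched in this gene, alone of the 12.

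Snord47, in the growth-arrest transcript Gas5, fell by 0.69 (SE 0.10, limma adjusted p = 0.0186). Its values were 9.75, 9.66, 9.56 and 9.62 against 9.26, 8.92, 8.76 and 8.89. Snord49a, in the noncoding gene 2410006H16Rik, fell by 0.56 (SE 0.10, limma adjusted p = 0.0283). The other called Snord genes were Snord35b (-0.41), Snord42b (-0.38) and Snord22 (-0.37). Snord22 (U22) is held by Snhg1 and takes part in the processing of small-subunit RNA. In each of these 5 genes the labels did not overlap.

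Of the Snora genes, Snora21 was 7.72, 7.29, 7.29 and 7.27 on the C57BL/6-labelled arrays and 6.93, 6.94, 6.84 and 6.88 on the WT-labelled ones. It fell by 0.50 (SE 0.10, limma adjusted p = 0.0359). Snora52 was 12.83, 12.54, 12.46 and 12.48 against 12.16, 12.16, 12.18 and 12.11, and fell by 0.42 (SE 0.08, limma adjusted p = 0.0339). In both, PBS replicate 1 was the highest array and the labels did not overlap. Snora73a and Snora73b, copies of the U17 RNA of small-subunit processing, differed by -0.27 and -0.32 without passing the threshold (limma adjusted p = 0.093 and 0.103).

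Against this direction stood 12 genes. Snora23 had the largest positive difference, 0.74 (SE 0.27, limma adjusted p = 0.108), with PBS replicate 3 again the highest array. Snord53 (0.26), in the gene of the ribosome biogenesis protein Wdr43, and Snord8 (0.24, limma adjusted p = 0.0517) were the largest among the Snord genes. In all, 4 genes, Snora23, Scarna8, Snord55 and Snord8, were higher on every WT-labelled array than on every C57BL/6-labelled one (9.13% of genes tested and 11.5% of all genes with a value). In the lower direction the labels did not overlap in 17 of the 53 genes, 13 of the 45 tested, against 11.1% of genes tested and 8.53% of all genes with a value.

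The calls by label rested on few arrays, whereas the directions of the 12 called genes were negative in every alternative tried. The number called lower was 0 without PBS replicate 2, 3 without rIL-33 replicate 1 or PBS replicate 4, and 4 without rIL-33 replicate 2, PBS replicate 1 or PBS replicate 3. It was 6 without rIL-33 replicate 4 and 6 after quantile normalization, which called 0.5% of all genes lower. Snord82 and Scarna17 remained called in 16 of 18 alternatives and Snord33 in 15 of 17. All 3 were called with the PBS arrays alone, which hold 2 arrays of each label, and none was called with the rIL-33 arrays alone. The rest of the 12 were less stable. Snord47 remained called in 11 of 18, Snord42b in 9 of 18, and Snord49a and Snora21 in 9 of 17. Snora52 remained called in 7 of 18, Snord22 in 7 of 17, and Snord73b, Snord35a and Snord35b in 6 of 18. Snord73b was not called when any single array was left out.

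Within each treatment the direction was mostly kept. Among the PBS arrays 41 of the 53 genes were lower with the WT label (median -0.36), and among the rIL-33 arrays 40 (median -0.19), with 36 lower in both. Snord14e differed most between the treatments, with a label difference of -0.75 in the PBS arrays and 0.00 in the rIL-33 arrays. Its interaction of treatment and label had an unadjusted p of 0.000606 and a limma adjusted p of 0.898. Unadjusted p values under 0.05 for this term were found for 4 of the 45, the others being Scarna13, Snora3 and Snord37. None of the 45 and none of the 14814 genes tested passed the limma adjusted threshold for it, where 473 genes had an unadjusted p under 0.05.

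**Figure D4:**
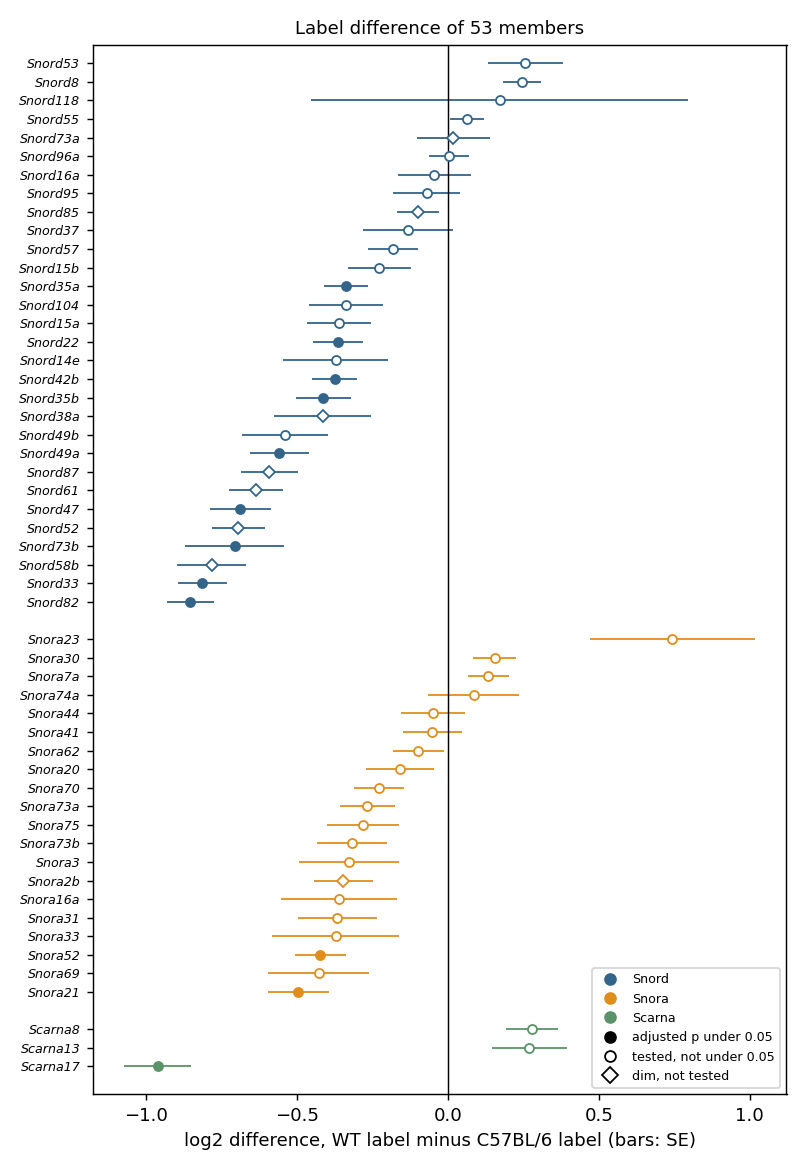
Log2 difference (WT label minus C57BL/6 label) of all 53 genes by class, with SE bars; filled circles passed the limma adjusted threshold, open circles did not, and open diamonds are dim genes without a test. The 12 filled circles lie between -0.96 and -0.34, and 41 of the 53 genes lie left of 0.

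The dim genes had no test, and most of the small RNAs among them lay in the same direction. Of the 8 dim snoRNA genes 7 were lower on the WT-labelled arrays, with a median of -0.50, and Snord73a, at 0.02, was the exception. Over all 4938 dim genes the median was 0.14 and 14.9% were lower. Signal at the low end of the arrays was thus higher with the WT label, as the lower quartiles given above also were, and its part in the label differences was not tested. Across the 30 Snord genes the label difference had a Pearson correlation of 0.28 with gene length and 0.16 with the mean level, and across the 20 Snora genes 0.26 and 0.23. These points share the 8 arrays and many share a host.

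Grouped by host, the snoRNAs in ribosomal protein genes had a median label difference of -0.37 (17 of 20 lower, 7 of 17 tested called). Those in long noncoding RNA genes had a median of -0.36 (12 of 15 lower, 4 of 13 tested called). Those in other protein genes had a median of -0.13 (12 of 17 lower, 1 of 14 tested called). Of all genes tested, 54.1% were lower and 3.67% called lower, and of all genes with a value 44.3% were lower. In 27 cases, with 24 distinct hosts, the host gene had a value of its own. The median difference of the 24 hosts was -0.12, with 21 lower and 6 called lower (3.67% of all genes tested were), and the median of the 27 RNAs was -0.28. The label difference of the RNA lay below that of its host in 15 of the 27. Across the pairs the Pearson correlation of the label differences was 0.23, and that of the treatment differences was 0.04, over points that share arrays and in part hosts. Whether a probe set reads the mature small RNA or the host's precursor was not tested.

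Of the 6 called RNAs whose host had a value, the host passed the threshold in 1. Snord42b fell by 0.38 and its host Rpl23a by 0.50 (SE 0.07, limma adjusted p = 0.0186). For the others the hosts differed by -0.11 (Ncl, with Snord82), -0.13 (Gas5, with Snord47), -0.20 (Rps3a1, with Snord73b), -0.24 (Rpl23, with Snora21) and -0.02 (Rplp2, with Snora52), and none of these 5 passed the limma threshold. Conversely, 5 hosts were called lower while the snoRNAs they hold were not, among them Tcp1 (-0.35), Tpt1 (-0.28) and Eef1b2 (-0.36). Of these 5, Rps12 fell by 0.57 (SE 0.10, limma adjusted p = 0.026) and Rpl27a by 0.52 (SE 0.06, limma adjusted p = 0.00952). Their snoRNAs Snora33 (-0.37) and Snora3 (-0.33) did not pass.

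RNAs from the same host did not always lie together. Ncl holds Snord82 (-0.85) and Snora75 (-0.28), and Rpl13a holds Snord33 (-0.81) and Snord35a (-0.34). Rps3a1 holds Snord73b (-0.71) and the dim Snord73a (0.02). By contrast, Snord49a (-0.56) and Snord49b (-0.54) in 2410006H16Rik lay close together, as did Snora73a (-0.27) and Snora73b (-0.32) in Snhg3 and Snord95 (-0.07) and Snord96a (0.00) in Rack1. Differences between RNAs of 1 host were not tested.

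**Figure D5:**
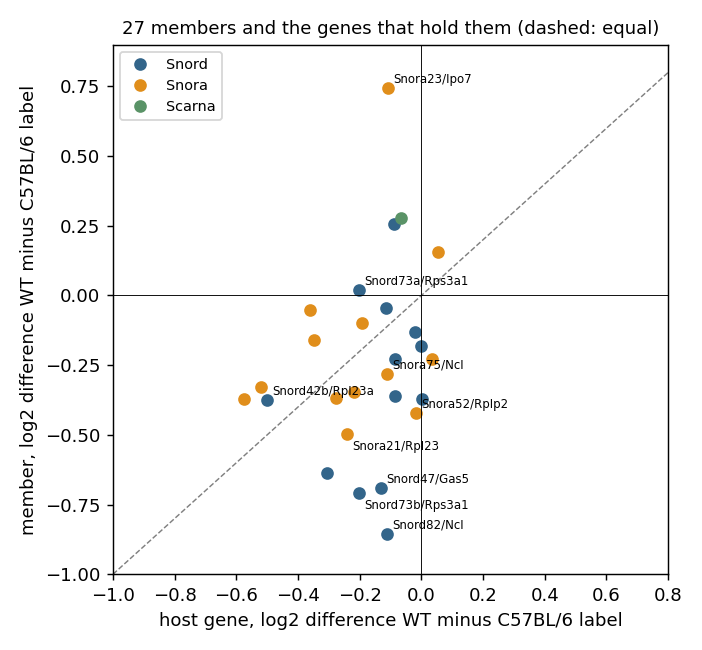
Label difference (log2, WT minus C57BL/6) of 27 small RNA genes on the vertical axis against that of their host genes on the horizontal axis; the dashed line marks equal differences. Snord82, Snord73b and Snord47 lie far below the line, with hosts at -0.11, -0.20 and -0.13, whereas Snord42b lies above it with Rpl23a at -0.50.

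Probe sets that the annotation ties to several genes had been left out of the gene values, and 19 of them name a Snord or Snora gene. They were lower on the WT-labelled arrays in 17 of 19 (median -0.32, against 0.03 for all probe sets). The 19 are not independent, since the names of the Snord116 cluster and of Snord14c with Snord14d recur among them. In a fit over all 18691 probe sets past the filter, 4 of the 15 tested were called lower and 0 higher, against 5.71% called lower overall. The 4 carry the names Snora34 with Mir1291 (-1.29), Snora24 with Snhg8 (-0.98), Snord68 with Rpl13 (-0.87) and Snord34 with Rpl13a (-0.71). The 4 probe sets of the imprinted Snord116 cluster differed by -0.48 to -0.49. By treatment the 19 differed by -0.35 to 0.20. Where a gene had a second probe set the label differences lay close together, -0.50 and -0.54 for Snora21, -0.33 and -0.35 for Snora3 and -0.78 and -0.79 for Snord58b.

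The proteins of the particles differed by label in part. Of all genes tested, 54.1% were lower, 3.67% were called lower and 30.1% had an unadjusted p under 0.05 in limma. Of the 8 core genes 7 were lower and 2 passed the limma threshold, Nop58 (-0.40, SE 0.10, limma adjusted p = 0.0483) and Nop10, a box H/ACA core protein (-0.39, SE 0.07, limma adjusted p = 0.0311). The methyltransferase gene Fbl differed by -0.12 (SE 0.08) and Dkc1 by -0.05 (SE 0.11). Of the 15 assembly and Cajal body genes 12 were lower and 3 passed, Ruvbl1 (-0.44), Rpap3 (-0.42) and Nufip1 (-0.34), all of the machinery that loads core proteins onto snoRNAs. Coil, the scaffold of the Cajal body, differed by -0.14 (SE 0.06). Of the 21 ribosomal RNA processing genes 19 were lower, with 0 past the limma threshold and 7 at an unadjusted p under 0.05. From a list of 15 noncoding snoRNA host genes, Gas5, Snhg5, Snhg11 and Meg3 had a value. Of these 4, 0 were past the limma threshold and 1 was at an unadjusted p under 0.05. Gas5 alone of them holds a snoRNA gene examined here. Leukocyte markers averaged 9.87 to 10.73 with the WT label and 9.77 to 10.70 with the C57BL/6 label.

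Of 307 other small noncoding RNA genes with a value, such as microRNA genes, 186 were higher and 121 lower on the WT-labelled arrays. Their median was 0.07, against 0.03 for all genes with a value, of which 44.3% were lower. Of the 145 tested, 13 passed the limma threshold as higher and 5 as lower, where 1.7% and 3.67% of all genes tested did. By treatment their median was -0.03, with 0 past the limma threshold and 20 at an unadjusted p under 0.05 (as had 9.63% of all genes tested).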

How the data were processed

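The deposited values are probe set intensities on a linear scale, which the submitters' processing notes say were made by RMA and Affymetrix Power Tools, without versions. RMA scales the arrays' distributions to each other, so differences are relative to all probe sets. The deposited distributions were still not equal. Lower quartiles were 88.3 to 93.8 with the C57BL/6 label and 97.1 to 107.3 with the WT label. Of 24922 probe sets, 21425 had exactly 1 gene symbol, 1399 had several and 2098 had none. Per gene, the one-symbol probe set of highest mean was kept and log2 was taken. Genes under the 25th percentile of the means (log2 6.65) were not tested, which left 14814 of 19752. Comparisons of 4 against 4 arrays used limma 3.58.1 (lmFit, eBayes; R 4.3.3), two-sided, with no block and Benjamini-Hochberg adjustment over the genes tested (threshold 0.05). The script was tested on simulated data. Whether the arrays of a group are separate mice is not in the labels, so the p-values cover the spread between samples, which may be technical. Precision is limited by the number of arrays. Hosts are genes whose RefSeq span (GRCm38.p6) holds the small RNA gene, found by Entrez ID and position without regard to strand.

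The genes and lists were chosen with earlier results of these data known. Named were Snord118, per comparison and class up to 10 genes past the threshold (with none, the 3 of largest difference per direction), their hosts, listed particle proteins past the threshold (with fewer than 2, the 2 of largest difference), and the genes with most probe sets. Genes of the interaction, of shared hosts and against the main direction were added after their values were seen. Alternatives were other normalizations, filters, fits, blocks and thresholds, all probe sets, each label or treatment alone, and each array left out. Python 3.11.15 and matplotlib 3.10.9 drew the figures.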

Additional observations from a re-analysis of the deposited data

Results flagged for a closer look

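In 23 named genes, 92 groups of 4 arrays were examined for a single array far from the other 3, and 5 had one, where chance gives about 1 in 20. PBS replicate 1 was the high array in 3 of them, within the C57BL/6-labelled group: Snora21 was 7.72 there against 7.26 to 7.29 on the others, Snora69 was 9.1 against 8.21 to 8.35, and Snord22 was 7.4 against 7.08 to 7.13. PBS replicate 3 was the high array in the other 2, within the WT-labelled group. Snora23 was 11.66 there against 10.29 to 10.33, and Snord49a was 7.58 against 7.31 to 7.33.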

How the results depend on the processing

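The count of snoRNA and Cajal body RNA genes higher with rIL-33 was 0 and became 1 (Snord118) with the C57BL/6-labelled arrays alone, and 0 to 1 as each array was left out (1 without rIL-33 replicate 4). The limma adjusted p of Snord118 was 0.305, and 0.0187 to 0.69 over its 19 alternatives, and it was past the threshold in those 2. The fit within the C57BL/6 label holds 2 arrays per treatment, and the other leaves out the lowest rIL-33 value of Snord118. Because Snord118 was singled out for its difference, no support is drawn from these p-values. With the replicate number as a block, 0 of the 45 and 0 of all genes passed (2327 at an unadjusted p under 0.05, against 1427 without the block). The numbers were not taken to pair the arrays, because not every correlation of same-numbered deviations exceeded 0.1: they were 0.44, -0.19, 0.43 and 0.54, and with the label taken out -0.28 for numbers 1 and 2 and 0.32 for numbers 3 and 4. By label, the count called lower (12) was 6 after quantile normalization, 3 with the PBS arrays alone, 0 with the rIL-33 arrays alone, and 0 to 9 as each array was left out. The count called higher (0) was 1 with treatment as a term, 2 at a threshold of 0.1, 1 with all probe sets (chosen after seeing the data), and 0 to 1 as each array was left out. The median of the 3 Scarna genes, 0.27, was 0.014 with the PBS arrays alone. Over all genes, the calls by label numbered 796 (68.3% lower), 88 (84.1%) after quantile normalization, 207 with cyclic loess and 601 (80.4%) with median centring. They numbered 893 (56.8%) with no dim filter, 459 (92.6%) with the filter at the 50th percentile, 1392 with treatment as a term, 35 and 0 with the PBS and rIL-33 arrays alone, and 0 to 798 as each array was left out. The genes by treatment numbered 1, with 2 and 4 in the C57BL/6-labelled and WT-labelled arrays alone. Fewer arrays give fewer degrees of freedom; the other causes were not tested. No result reversed its direction under a called test.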
